A study of Mus musculus with 19 samples.

Results

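The bile acid transport and farnesoid X receptor (FXR) group comprised 8 of the 55487 genes listed for mouse small intestinal crypts: *Slc10a2*, *Fabp6*, *Slc51a*, *Slc51b*, *Fgf15*, *Nr1h4*, *Nr0b2*, and *Gpbar1*. Each gene was taken by its symbol, which matched a single Ensembl gene ID; the rule uses no measured value, although the group was proposed with earlier results of these data known. Bile acids are reclaimed in the intestine: the apical sodium-dependent transporter encoded by *Slc10a2* imports them into enterocytes, the ileal lipid-binding protein encoded by *Fabp6* carries them through the cytosol, and the organic solute transporter, a heteromer of the *Slc51a* and *Slc51b* products, exports them across the basolateral membrane. Inside the cell, bile acids activate the nuclear receptor FXR, the product of *Nr1h4*, which induces *Fgf15*, *Slc51a*, *Slc51b*, *Fabp6*, and the corepressor gene *Nr0b2*. FGF15 is secreted and travels to the liver, where it represses bile acid synthesis, and *Gpbar1* encodes the cell surface bile acid receptor TGR5. *Slc10a2*, *Fabp6*, and *Fgf15* are best known as genes of the ileum.

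Fasting and loss of neurotensin (NT), a gut hormone released after fat intake, were crossed in 4 groups of mice. RNA from intestinal crypts was sequenced from 5 NT+/+ mice fed ad libitum (AL), 5 NT+/+ mice fasted for 48 hours (Fast), 4 NT-/- mice fed ad libitum, and 5 NT-/- mice fasted for 48 hours, 19 mice in all, each a separate animal. All were adult C57BL/6 mice of both sexes (12 female, 6 male, and 1 without a sex label), the deletion of *Nts* was in the whole body, fed controls received standard chow, and fasted mice had water. The authors describe the NT+/+ and NT-/- mice of the study as carrying an Lgr5-EGFP reporter. They describe the control mice fed ad libitum as littermates matched for sex and age. Crypts came from the proximal part of the small intestine, so the end of the ileum was not sampled. Crypt preparations hold several epithelial cell types, and in bulk RNA a change in the number of cells of a type and a change in RNA per cell cannot be told apart.

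Total counts ranged from 9059418 to 35068669 per mouse (median, 18541770), and values are read counts scaled to library size (CPM) unless stated otherwise. *Nts*, the deleted gene, measured between 4.98 and 8.59 CPM in the 10 NT+/+ mice and between 0.144 and 0.792 CPM in the 9 NT-/- mice. The mouse titled NT+/+ Fast-5 has an NT -/- genotype entry; its *Nts* level was 5.43 CPM, within the range of the NT+/+ mice, and it was kept in the group of its title. Summed epithelial markers were present in every mouse (4530 to 6020 CPM), whereas the summed markers of mesenchyme (0.384 to 5.65 CPM), smooth muscle (at most 3.91 CPM), endothelium (at most 2.45 CPM), and macrophages (at most 4.54 CPM) were low, with 0 of these genes called in any comparison. Leukocyte markers were present at a higher sum, 49.4 to 140 CPM. Of these 5 markers, 1 was called lower with fasting in each genotype. The duodenal factor *Pdx1* was at 0.0579 to 0.395 CPM, and *Gata4*, a factor of the proximal and middle small intestine, was at 108 to 171 CPM.

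The 8 genes lie on 8 chromosomes of GRCm38: *Gpbar1* (chr1:74278550-74279624, plus strand), *Nr0b2* (chr4:133553376-133556536, plus), *Fgf15* (chr7:144896531-144900953, plus), *Slc10a2* (chr8:5083219-5105351, minus), *Slc51b* (chr9:65412714-65422955, minus), *Nr1h4* (chr10:89454234-89533585, minus), *Fabp6* (chr11:43596049-43601540, minus), and *Slc51a* (chr16:32474504-32487879, minus). FXR binds as a dimer with RXR to an inverted repeat of the hexamer AGGTCA with a spacer of 1 base. Because FXR targets sit beside the gene for FXR itself in this group, the 250 bases upstream of each start in RefSeq (GRCm38.p6) were searched on both strands for AGGTCA, for the exact repeat AGGTCANTGACCT, and for the shorter core GGTNANTNACC, which reads the same on both strands and can overlap AGGTCA. Promoters were given for 7 of the 8 genes, all but *Fgf15*. The 4 windows that hold a match are shown, limited to bases outside annotated exons, 5′ to 3′ on the strand of the gene, with the core in capitals for *Fabp6* and AGGTCA or its complement TGACCT in capitals for the others.
*Fabp6*, chr11:43601563-43601812, minus strand: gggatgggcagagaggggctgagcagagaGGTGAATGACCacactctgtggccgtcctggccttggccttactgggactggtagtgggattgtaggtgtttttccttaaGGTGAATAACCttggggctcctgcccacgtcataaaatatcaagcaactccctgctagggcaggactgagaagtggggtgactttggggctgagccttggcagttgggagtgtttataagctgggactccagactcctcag
*Slc51a*, chr16:32487880-32488129, minus strand: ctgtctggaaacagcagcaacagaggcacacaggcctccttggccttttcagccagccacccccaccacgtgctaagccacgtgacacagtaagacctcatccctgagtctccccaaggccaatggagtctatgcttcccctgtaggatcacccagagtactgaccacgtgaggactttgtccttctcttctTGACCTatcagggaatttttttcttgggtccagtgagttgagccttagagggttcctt
*Slc51b*, chr9:65422956-65423023, minus strand: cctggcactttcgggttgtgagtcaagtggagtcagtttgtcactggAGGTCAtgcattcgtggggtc
*Nr1h4*, chr10:89506659-89506908, minus strand: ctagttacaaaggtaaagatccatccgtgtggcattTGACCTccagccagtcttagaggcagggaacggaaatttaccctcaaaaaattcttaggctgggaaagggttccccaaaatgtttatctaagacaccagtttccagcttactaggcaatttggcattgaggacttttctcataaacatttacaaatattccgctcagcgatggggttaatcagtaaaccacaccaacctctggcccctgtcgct
AGGTCA was found upstream of 3 of the 7 genes, *Slc51a* (bases -58 to -53, counted back from the base before the start), *Slc51b* (-203 to -198), and *Nr1h4* (-214 to -209), and upstream of 14.0% of all 32851 promoters. The core GGTNANTNACC was found in 2 of the 7, at 2 positions in *Fabp6* (-221 to -211 and -141 to -131) and at -186 to -176 in *Slc51b*, across the edge of an annotated exon, and in 0.219% of all promoters. The exact repeat was found in 0 of the 7 and in 2 promoters of the whole table. The *Slc51b* window is 68 bases long because the remaining 182 bases lie in an exon of that gene, and the *Nr1h4* start lies inside the annotated span of the gene. Such matches describe letters in these windows and do not show binding.

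The exporter subunits and FXR were expressed at the highest levels of the group, and the ileal and low-abundance genes followed. On the scale of TPM, which also divides by transcript length, the means over the 19 mice were 70.5 for *Slc51a* (range, 42.5 to 108), 51.1 for *Slc51b* (19.9 to 105), 30.1 for *Nr1h4* (15.9 to 49.3), 17.8 for *Fabp6* (1.29 to 44.9), 1.39 for *Fgf15* (0 to 7.28), 0.673 for *Slc10a2* (0.07 to 2.11), 0.289 for *Nr0b2*, and 0.138 for *Gpbar1*. Within mice, *Slc51a* exceeded *Slc51b* in 18 of 19, *Slc51b* exceeded *Nr1h4* in 19, *Nr1h4* exceeded *Fabp6* in 14, and *Fabp6* exceeded *Fgf15* in 19, whereas *Fgf15* exceeded *Slc10a2* in 9 of 19. The range over mice of each gene overlapped that of its neighbor in this order. Thus the carrier *Fabp6* was present at a higher level than the importer gene *Slc10a2* in the same crypts, and *Nr0b2* (0 to 12 reads per mouse) and *Gpbar1* (0 to 5 reads per mouse) were near the limit of detection.

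**Figure D1:**
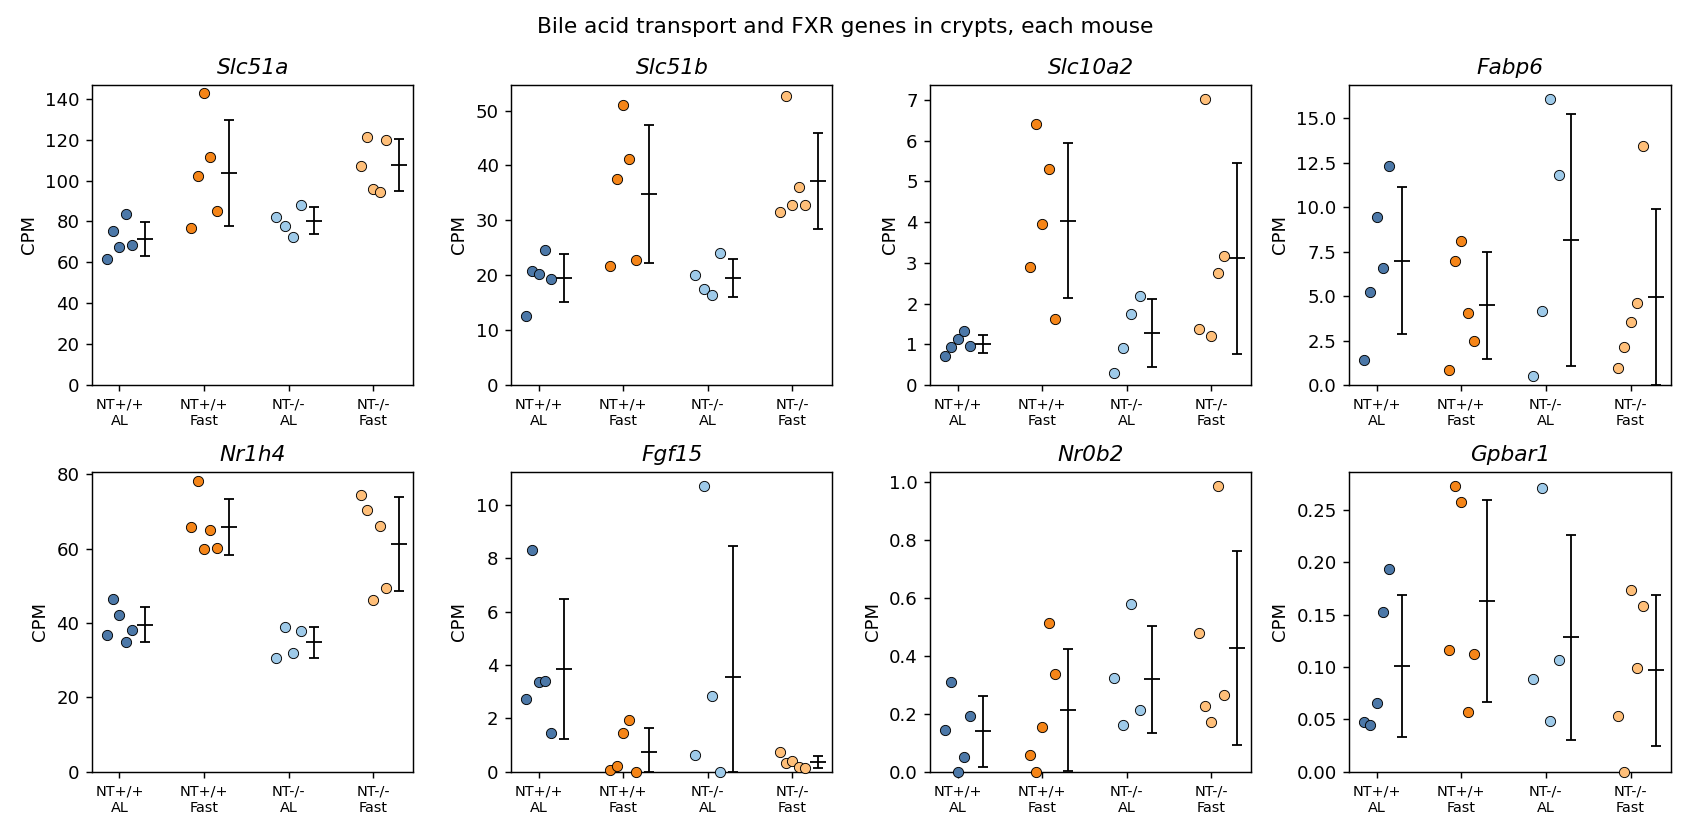
Expression of the 8 genes in each mouse, in CPM (y axes, which differ between genes), for the 4 groups; points are mice and bars are the group mean ± SD, drawn no lower than 0. The *Nr1h4* points of fasted mice (46.2 to 78.3 CPM) lie above those of fed mice of the same genotype (30.5 to 46.4 CPM), whereas *Fabp6* points of fed and fasted mice overlap widely in both genotypes.

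Fasting raised *Nr1h4*, *Slc51a*, and *Slc51b* in both genotypes. *Slc10a2* also rose in NT+/+ mice. Whether a fall of *Fgf15* was called, and in which genotype, depended on whether and how mice were blocked. To determine how 48 hours of fasting changed these genes, fasted mice were compared with fed mice of the same genotype. In NT+/+ mice, 4 of the 6 members that passed the filter on low counts were called at an adjusted p under 0.05, all 4 higher in fasted mice, against 21.6% of the 17875 genes tested (11.2% higher and 10.4% lower). In NT-/- mice, 4 of the 6 were called, 3 higher and 1 lower, against 25.2% of all genes (12.5% higher and 12.6% lower). The median log2 fold change of the 6 members was 0.64 in NT+/+ and 0.62 in NT-/- mice, beside -0.00886 and -0.022 over all genes tested. *Nr0b2* and *Gpbar1* did not pass the filter. With mice blocked by the number that leads the name of their file (the file-number block), *Fgf15* was called in NT+/+ mice and no longer in NT-/- mice, *Slc10a2* was called in both genotypes, and 5 and 4 members were called.

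*Slc10a2*, the importer, was low in crypts (10 to 94 reads per mouse) and rose with fasting in NT+/+ mice. In fed NT+/+ mice it measured 0.72, 0.934, 1.12, 1.32, and 0.967 CPM, and in fasted NT+/+ mice 2.9, 6.41, 3.96, 5.31, and 1.62 CPM. Each fasted NT+/+ mouse was above each fed one. The log2 fold change was 1.99 (SE, 0.50; 95% interval, 0.96 to 3.03; adjusted p = 0.0069), a 3.97-fold higher level. In NT-/- mice, *Slc10a2* measured 0.295, 0.92, 1.73, and 2.18 CPM when fed and 1.39, 7.04, 1.21, 2.76, and 3.17 CPM when fasted. Here the groups overlapped, with 3 of 5 fasted mice above the 4 fed mice. Mouse NT-/- Fast-2, the library with the lowest total count, was far above the rest. The log2 fold change of 1.26 (SE, 0.53; 95% interval, 0.15 to 2.37) did not pass the test (adjusted p = 0.0891), and it did pass with the file-number block (1.29; adjusted p = 0.0428).

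*Fabp6*, the cytosolic carrier, did not differ between fed and fasted mice beyond the spread among mice. Its values were 1.39, 5.25, 9.45, 6.6, and 12.3 CPM in fed NT+/+ mice and 0.869, 6.96, 8.08, 4.05, and 2.46 CPM in fasted NT+/+ mice. In NT-/- mice they were 0.501, 4.17, 16.1, and 11.8 CPM when fed and 0.961, 2.16, 3.53, 4.64, and 13.5 CPM when fasted. Within a group the highest mouse was many times above the lowest, and the mouse with file number 1 was the lowest of each of the 4 groups. The log2 fold changes were -0.64 in NT+/+ (95% interval, -2.18 to 0.90; adjusted p = 0.587) and -0.68 in NT-/- mice (95% interval, -2.29 to 0.94; adjusted p = 0.577), and these intervals reach from falls of more than 4-fold to rises. The NT-/- value was -1.54 without mouse NT-/- Fast-5 and -0.10 without mouse NT-/- AL-3. With sex as a covariate it was -1.55, in a fit that also lacks mouse NT-/- Fast-5, which has no sex label. In NT+/+ mice the value ranged from -0.97 to -0.33 with a mouse left out. None of these values passed the test.

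Both exporter subunits rose with fasting in both genotypes. *Slc51a* measured 61.8, 75.1, 67.7, 83.4, and 68.3 CPM in fed NT+/+ mice and 76.6, 102, 143, 112, and 85.3 CPM in fasted NT+/+ mice. The groups overlapped, with 4 of the 5 fasted mice above every fed mouse. In NT-/- mice, *Slc51a* measured 82.2, 78, 72.6, and 88.3 CPM when fed and 107, 122, 95.9, 94.3, and 120 CPM when fasted, without overlap. The log2 fold changes were 0.54 (SE, 0.13; 95% interval, 0.27 to 0.82; adjusted p = 0.00596) in NT+/+ and 0.42 (SE, 0.14; 95% interval, 0.13 to 0.72; adjusted p = 0.0323) in NT-/- mice. The call in NT-/- mice was lost with sex as a covariate, in a fit that drops the mouse without a sex label (0.38; adjusted p = 0.0769), and when any of mice NT-/- AL-1, AL-2, AL-3, Fast-2, or Fast-5 was left out (adjusted p = 0.0572, 0.0756, 0.0986, 0.0729, and 0.0721).

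*Slc51b* measured 12.5, 20.7, 20.1, 24.6, and 19.3 CPM in fed NT+/+ mice and 21.6, 37.5, 51.1, 41.2, and 22.8 CPM in fasted NT+/+ mice. Mice NT+/+ Fast-1 and Fast-5 remained within the fed range, and the other fasted mice were above it. In NT-/- mice, *Slc51b* measured 20, 17.5, 16.4, and 24.1 CPM when fed and 31.6, 52.6, 32.8, 36, and 32.8 CPM when fasted, without overlap. The log2 fold changes were 0.84 (SE, 0.22; 95% interval, 0.39 to 1.30; adjusted p = 0.00903), or 1.79-fold, in NT+/+ and 0.92 (SE, 0.24; 95% interval, 0.43 to 1.41; adjusted p = 0.0068), or 1.90-fold, in NT-/- mice. As a ratio of TPM within a mouse, *Slc51b* to *Slc51a* averaged 0.638 ± 0.097 (SD, n = 5) in fed and 0.753 ± 0.108 (n = 5) in fasted NT+/+ mice, and 0.575 ± 0.0515 (n = 4) in fed and 0.807 ± 0.161 (n = 5) in fasted NT-/- mice; these ratios were not tested.

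*Nr1h4*, which encodes the bile acid sensor, rose in both genotypes. It measured 36.7, 46.4, 42.1, 34.8, and 38 CPM in fed and 65.8, 78.3, 60, 64.9, and 60.2 CPM in fasted NT+/+ mice. It measured 30.5, 39, 32.1, and 37.8 CPM in fed and 74.5, 70.3, 46.2, 66.1, and 49.5 CPM in fasted NT-/- mice. Fed and fasted mice did not overlap in either genotype, and mice NT-/- Fast-3 and Fast-5 were the lowest of the fasted mice. The log2 fold changes were 0.73 (SE, 0.13; 95% interval, 0.47 to 0.99; adjusted p = 0.000356) in NT+/+ and 0.82 (SE, 0.13; 95% interval, 0.53 to 1.10; adjusted p = 0.000221) in NT-/- mice. Both calls held in every alternative analysis and with any mouse left out.

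*Fgf15*, the hormone gene induced by FXR, was lower in most fasted mice, and whether it passed the test depended on the genotype and the analysis. It measured 2.73, 8.32, 3.37, 3.4, and 1.45 CPM in fed NT+/+ mice and 0.0579, 0.205, 1.44, 1.94, and 0 CPM in fasted NT+/+ mice. Of the fasted mice, 4 of 5 were below every fed mouse, and mouse NT+/+ Fast-4 was not. The log2 fold change of -2.37 (SE, 0.92; 95% interval, -4.29 to -0.45), a 5.16-fold lower level, did not pass the test (adjusted p = 0.0729). It passed with the file-number block (-2.46; adjusted p = 0.02), with only these 2 groups in the fit (adjusted p = 0.0443), and without mouse NT-/- AL-2, NT-/- AL-4, or NT+/+ Fast-4 (adjusted p = 0.0436, 0.0386, and 0.0489; log2 fold change without NT+/+ Fast-4, -3.09).

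In NT-/- mice, *Fgf15* measured 0.62, 10.7, 2.84, and 0 CPM when fed and 0.748, 0.34, 0.405, 0.197, and 0.159 CPM when fasted. The fed mice spanned the whole range of the gene, from 0 reads in NT-/- AL-4, where 3 reads would have been 0.16 CPM, to 198 reads in NT-/- AL-2, and 0 of the 5 fasted mice lay below all fed mice. *Fgf15* fell by 3.15 on the log2 scale (SE, 1.06; 95% interval, -5.38 to -0.93; adjusted p = 0.0354). That call rested on mouse NT-/- AL-2, without which the log2 fold change was -1.55 (adjusted p = 0.324). It was also lost with the file-number block (-2.41; adjusted p = 0.0504), with sex as a covariate (-2.68; adjusted p = 0.101), and without mouse AL-3, Fast-2, Fast-3, Fast-4, or Fast-5 (adjusted p = 0.0532, 0.0602, 0.0672, 0.0664, and 0.0781). Between mice that share a file number, *Fgf15* was lower when fasted in 5 of 5 NT+/+ pairs and in 2 of 4 NT-/- pairs.

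*Nr0b2* and *Gpbar1* were too low to be tested with the other genes. *Nr0b2* measured 0 to 0.311 CPM in fed and 0 to 0.514 CPM in fasted NT+/+ mice, and 0.162 to 0.578 CPM in fed and 0.173 to 0.986 CPM in fasted NT-/- mice. *Gpbar1* measured 0.0445 to 0.193, 0.0571 to 0.273, 0.0481 to 0.271, and 0 to 0.173 CPM in the same order of groups. The groups overlapped for both genes. Differences between fed and fasted means of log2(CPM + 1) were 0.079 and 0.094 for *Nr0b2* and 0.078 and -0.04 for *Gpbar1* in NT+/+ and NT-/- mice (two-sided exact permutation tests; p = 0.556, 0.698, 0.262, and 0.619). Between mice with the same file number, *Nr0b2* was higher when fasted in 4 of 4 NT-/- and 3 of 5 NT+/+ pairs; its values rest on 0 to 12 reads per mouse.

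**Figure D2:**
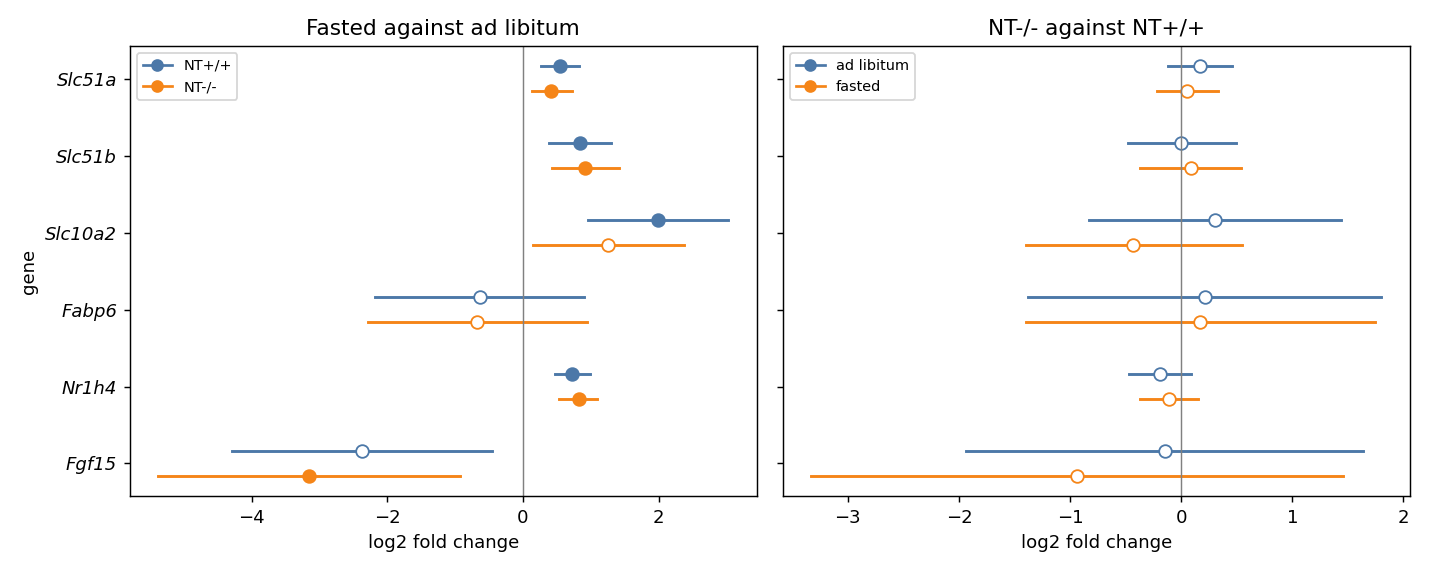
Log2 fold changes (x axes) of the 6 members tested, with 95% intervals, for fasted against ad libitum mice of each genotype (left) and for NT-/- against NT+/+ mice in each diet (right). Filled points have an adjusted p under 0.05 in the fit without blocks. These are *Slc51a*, *Slc51b*, and *Nr1h4* in both genotypes, *Slc10a2* in NT+/+ mice, and *Fgf15* in NT-/- mice, and 0 points are filled on the right.

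Loss of NT was not followed by a detectable change in any member. To determine whether NT affects these genes, NT-/- and NT+/+ mice of the same diet were compared by the same quasi-likelihood test. In fed mice, 0 of the 6 members tested were called, beside 0.00559% of all genes, which is *Nts* alone, and in fasted mice 0 of 6 were called, again beside 0.00559%. At an unadjusted p under 0.05 the count of members was also 0 in both diets, beside 1.67% of all genes in fed and 9.14% in fasted mice. At an adjusted p under 0.05, the count of members was 0 with DESeq2 and with the likelihood ratio test. The intervals were narrow for *Slc51a*, *Slc51b*, and *Nr1h4*. In fed mice, the log2 fold change was 0.17 (-0.12 to 0.46) for *Slc51a*, 0.00 (-0.48 to 0.49) for *Slc51b*, and -0.19 (-0.47 to 0.09) for *Nr1h4*. In fasted mice, it was 0.05 (-0.22 to 0.33), 0.09 (-0.37 to 0.54), and -0.11 (-0.37 to 0.15). Between mice with the same file number, *Nr1h4* was lower in NT-/- than in NT+/+ mice in 4 of 4 fed pairs (mean difference in log2(CPM + 1), -0.16 ± 0.12, SD) and in 3 of 5 fasted pairs; it was not called with the file-number block.

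For the other members the comparison of genotypes was imprecise. The log2 fold change of *Slc10a2* was 0.30 (95% interval, -0.83 to 1.44) in fed and -0.43 (-1.40 to 0.55) in fasted mice. For *Fabp6* it was 0.21 (-1.38 to 1.80) and 0.17 (-1.40 to 1.74), and for *Fgf15* it was -0.15 (-1.94 to 1.64) and -0.94 (-3.33 to 1.46). These intervals include changes of 2-fold or more in both directions for *Fabp6* and *Fgf15*. *Nr0b2* was higher in NT-/- mice by 0.207 in fed and 0.223 in fasted mice on the log2(CPM + 1) scale (two-sided exact permutation tests, p = 0.111 and 0.262), and *Gpbar1* differed by 0.034 and -0.083 (p = 0.603 and 0.238); adjusted over the 8 such tests, p ranged from 0.524 to 0.698.

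The effect of fasting itself was compared between genotypes by an interaction term. It was called for 0 of the 6 members and for 0% of all genes (0 genes with DESeq2 and 1 with the likelihood ratio test). At an unadjusted p under 0.05 there were 485 genes, or 2.71%, and 0 members in the main fit. The difference in log2 fold change, NT-/- minus NT+/+, was -0.73 (95% interval, -2.23 to 0.77) for *Slc10a2* and -0.79 (-3.77 to 2.19) for *Fgf15*. In the fit without blocks, *Slc10a2* was called in NT+/+ mice and *Fgf15* in NT-/- mice. A difference between genotypes in their response was not shown. For the members called in both genotypes, the difference was -0.12 (-0.52 to 0.28) for *Slc51a*, 0.08 (-0.58 to 0.74) for *Slc51b*, and 0.08 (-0.30 to 0.46) for *Nr1h4*.

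Other genes of the pathway also changed with fasting, most of them upward. Counting each gene once and leaving out the members, 43 of 51 listed genes were tested; 20 were higher and 3 lower in fasted NT+/+ mice, and 22 were higher and 3 lower in fasted NT-/- mice, beside 21.6% and 25.2% of all genes called in either direction, whereas 0 were called between genotypes in either diet. Of the 15 nuclear receptors and factors tested, 8 rose and 0 fell in each genotype, and the same 8 were called in both (median log2 fold change, 0.30 and 0.33). *Rxra*, the partner of FXR, rose by 0.49 (SE, 0.08) in NT+/+ and 0.51 (SE, 0.09) in NT-/- mice. *Nr1i3*, which encodes the xenobiotic receptor CAR, rose by 1.21 (SE, 0.20) and 1.15 (SE, 0.21), *Hnf4g*, a nuclear receptor of enterocytes, by 0.74 (SE, 0.16) and 0.77 (SE, 0.17), and *Gata6* by 0.45 (SE, 0.07) and 0.52 (SE, 0.08).

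Of 8 other bile acid transporters, 6 were tested; 2 rose in NT+/+ mice and 3 in NT-/- mice (median, 0.18 and 0.31), and 0 fell; with so few genes these counts are not set apart from the 21.6% and 25.2% of all genes called. The apical export pump gene *Abcc2* rose by 0.70 (SE, 0.17) and 0.80 (SE, 0.18) and *Abcg2* by 0.42 (SE, 0.11) and 0.66 (SE, 0.11). *Abcc3*, a basolateral export pump, rose in NT-/- mice by 0.53 (SE, 0.10); its value in NT+/+ mice was 0.24 (SE, 0.09; adjusted p = 0.0658). Of 12 enzymes of bile acid synthesis, conjugation, and modification, 7 were tested, and 5 rose and 1 fell in each genotype (median, 1.42 and 1.80). *Cyp3a11*, which hydroxylates bile acids and drugs, rose from a mean of 62.5 to 453 CPM in NT+/+ and from 67.9 to 708 CPM in NT-/- mice (log2 fold change, 2.86 ± 0.57 and 3.38 ± 0.63, SE); it belongs to a multigene family among whose members reads can be divided. *Cyp27a1*, the sterol 27-hydroxylase gene, rose by 1.75 (SE, 0.32) and 2.17 (SE, 0.35) on the log2 scale, *Acox2*, of the peroxisomal side-chain steps, by 1.5 (SE, 0.19) and 1.94 (SE, 0.21), and *Hsd3b7* fell by 0.59 (SE, 0.13) and 0.84 (SE, 0.14). The members that rose include side-chain and modifying enzymes, whereas the liver genes *Cyp7a1* and *Cyp8b1* did not pass the filter on low counts.

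Genes known to be induced by FXR in intestine or liver did not move in 1 direction, and their counts of calls were near those over all genes. Of 10 such genes outside the group, all tested, 2 rose and 1 fell in NT+/+ mice and 3 rose and 1 fell in NT-/- mice (median, 0.07 and 0.11), beside 21.6% and 25.2% of all genes called. Those that rose were *Abcc2* and *Cyp3a11* in both genotypes and *Nos2*, the inducible nitric oxide synthase gene, in NT-/- mice (2.30; SE, 0.77; adjusted p = 0.0347; -0.23 in NT+/+; interaction adjusted p = 1.0). *Smpd3*, which encodes a neutral sphingomyelinase, fell by 0.63 (SE, 0.11) and 0.73 (SE, 0.12). Of 3 genes of the FGF15 receptor and FGF15 modulators, 2 rose in both genotypes: *Fgfr4*, the FGF15 receptor, by 0.98 (SE, 0.18) and 0.61 (SE, 0.20), and *Malrd1*, known to raise FGF15 output, by 0.75 (SE, 0.10) and 0.78 (SE, 0.11). Of these 3, 1 was called in NT-/- mice with sex as a covariate or without mouse NT-/- AL-1, AL-2, AL-4, Fast-3, or Fast-5. Of 5 fatty acid and lipid binding genes related to *Fabp6*, 4 were tested, and 3 rose and 1 fell in each genotype (median, 1.49 and 1.72). *Fabp1* rose by 2.09 (SE, 0.23) and 2.05 (SE, 0.25), *Fabp2* by 1.43 (SE, 0.24) and 1.80 (SE, 0.26), and *Rbp2*, the retinol-binding protein gene, by 1.55 (SE, 0.21) and 1.63 (SE, 0.23), beside -0.64 and -0.68 for *Fabp6*.

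**Figure D3:**
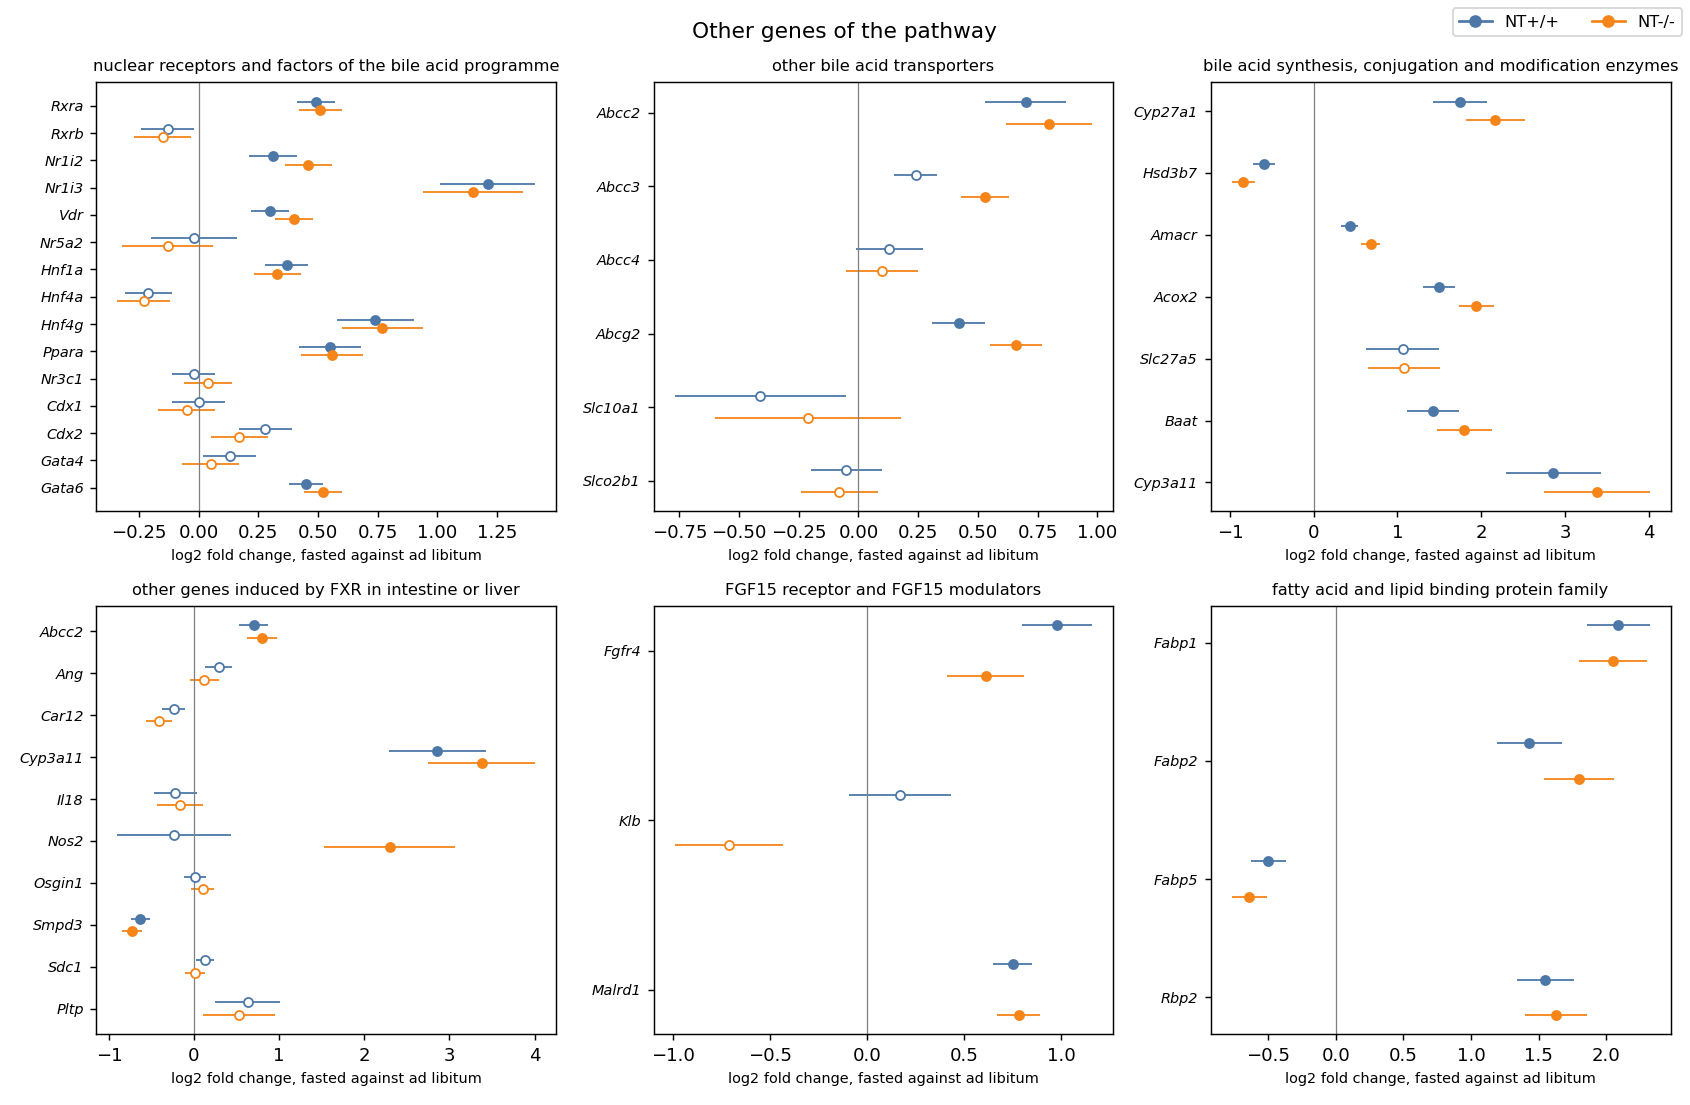
Log2 fold change (x axes; bars, ± SE) of fasted against ad libitum mice for the tested genes of 6 lists around the group, in NT+/+ (blue) and NT-/- mice (orange); filled points have an adjusted p under 0.05. *Fabp1*, *Fabp2*, and *Rbp2* lie between 1.43 and 2.09, and *Cyp3a11* at 2.86 and 3.38, to the right of zero in both genotypes.

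Markers of enterocytes and of the distal small intestine moved with fasting as well, and the summed proximal markers were also higher in fasted NT-/- mice. Over all genes, 21.6% were called in NT+/+ and 25.2% in NT-/- mice. Of 8 mature enterocyte markers, 6 rose in NT+/+ mice (median log2 fold change, 0.91) and 7 in NT-/- mice (1.14); their summed level was 3800 to 6870 CPM in fed and 6620 to 10900 CPM in fasted NT+/+ mice, and 5110 to 7450 CPM in fed and 10500 to 13800 CPM in fasted NT-/- mice. Of 5 crypt stem and proliferating cell markers, 3 fell in each genotype (*Olfm4*, *Mki67*, and *Top2a*), whereas the stem cell markers *Lgr5* (0.29 in NT+/+ and -0.02 in NT-/- mice) and *Ascl2* (0.63, adjusted p = 0.114, and 0.12) did not pass the test. The sum of the 5, to which *Olfm4* contributed most, went from 2810 to 3780 CPM to 1550 to 2760 CPM in NT+/+ mice and from 2550 to 3370 CPM to 1480 to 2000 CPM in NT-/- mice. Markers of the distal small intestine other than the members rose in 4 of 8 cases in NT+/+ mice (sum, 701 to 1430 CPM fed and 1250 to 2330 CPM fasted), and in NT-/- mice 6 rose and 1 fell (803 to 1210 CPM fed and 1870 to 2550 CPM fasted). Of the 6 proximal markers tested, 1 fell in NT+/+ mice, and 2 rose and 1 fell in NT-/- mice. The summed proximal markers were at 508 to 1250 CPM in fed and 769 to 1650 CPM in fasted NT+/+ mice. In NT-/- mice the proximal sum was 745 to 1220 CPM when fed and 1340 to 1960 CPM when fasted, without overlap. Of the remaining lists, Paneth cell markers gave 0 and 1 calls, lower, of 5, enteroendocrine markers 1 higher, and 1 higher and 2 lower, and leukocyte markers 1 lower in each genotype. With so few genes, the counts of proximal, Paneth, enteroendocrine, and leukocyte markers are not set apart from the shares over all genes. The part of the marker lists in the changes of the members was not tested.

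Across mice, the exporter subunits followed each other and the enterocyte markers within groups, and *Nr1h4* did not. Deviations of log2(CPM + 1) from the group mean were correlated over the 19 mice, and 15 pairs of the 6 tested members were compared. *Slc51a* and *Slc51b* had r = 0.87 (permutation test, p = 4e-05; adjusted p = 0.0006) and rho = 0.82 (adjusted p = 0.00225), and r = 0.82 without the 2 mice farthest from the median of *Slc51a*. With the means of the file-number sets also removed, r was 0.86. No other pair passed the adjustment: *Slc10a2* and *Slc51b* had r = 0.62 (permutation test, adjusted p = 0.066), *Slc10a2* and *Fabp6* 0.51 (permutation test, adjusted p = 0.247), *Nr1h4* with the other members -0.11 to 0.37, and *Fgf15* with the others 0.01 to 0.21.

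With the summed mature enterocyte markers, *Slc51b* had r = 0.85 (permutation test, adjusted p = 0.00296 over 24 relations; rho = 0.86; r = 0.88 without the 2 farthest mice) and *Slc51a* r = 0.76 (permutation test, adjusted p = 0.00528; rho = 0.76; 0.78), whereas *Nr1h4* had r = -0.05. With the summed proximal and distal markers, r was similar, 0.86 and 0.87 for *Slc51b* and 0.72 and 0.70 for *Slc51a* (permutation tests, adjusted p = 0.00296, 0.00296, 0.0101, and 0.0165). *Lct* (283 to 1650 CPM) contributed most to the proximal sum. Whether the regional sums vary apart from the enterocyte markers was not tested. *Slc10a2* had r = 0.53 with the distal markers (permutation test, adjusted p = 0.0327; rho = 0.62; 0.47 without the 2 farthest mice; 0.40 with set means removed) and r = 0.45 with the proximal markers (permutation test, adjusted p = 0.0907), and *Fabp6* had r = 0.34 with the distal markers (permutation test, adjusted p = 0.303). *Fgf15* was lower in mice with higher stem and proliferating cell markers (r = -0.63; permutation test, adjusted p = 0.0165; rho = -0.68; -0.59 without the 2 farthest mice), but with set means removed r was -0.26. These relations with marker sums were chosen after the values of the members were seen.

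**Figure D4:**
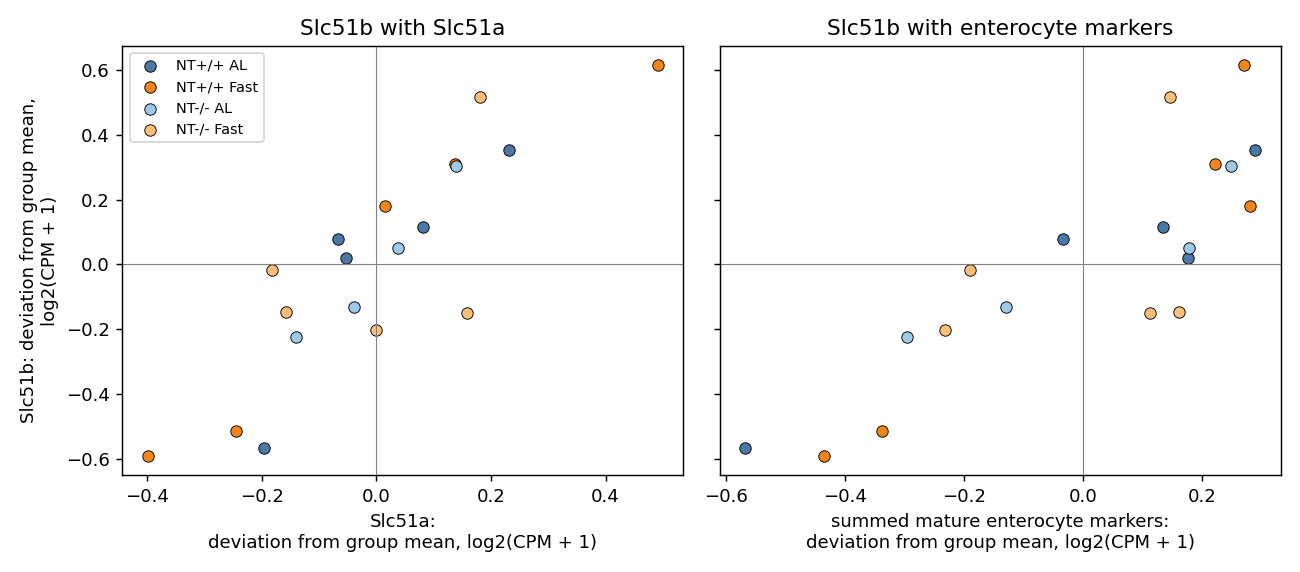
Deviation of *Slc51b* from its group mean in log2(CPM + 1) (y axis) against the deviation of *Slc51a* (left) and of the summed mature enterocyte markers (right) in the same 19 mice, colored by group. Points of all 4 groups run from lower left to upper right, with r = 0.87 and r = 0.85.

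By the same deviations, the 3 genes most like each member among 13247 expressed genes were named as a description. For *Slc51a* they were *Sult2b1* (r = 0.93), *Slc7a7* (0.92), and *Acy3* (0.90), and for *Slc51b* they were *Rhoc* (0.93), *Myo7b* (0.92), and *Myo15b* (0.92). *Slc7a7* encodes a basolateral amino acid transporter subunit of enterocytes and *Myo7b* a myosin of the brush border. For *Slc10a2* they were *Pm20d1* (0.82), *Tiam2* (0.81), and *Slc13a1* (0.80), for *Fabp6* *Sqor* (0.82), *Gm43213* (0.81), and *Ddx59* (0.81), for *Nr1h4* *Specc1l* (0.81), *Ppfibp1* (0.79), and *Rin2* (0.77), and for *Fgf15* *Mroh3* (0.78), *Malrd1* (0.74), and *AC154652.2* (0.73). The list for *Fgf15* thus includes *Malrd1*, a gene of the FGF15 modulator list above.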

How the data were processed

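RNA from intestinal crypts of 19 mice was depleted of ribosomal RNA and sequenced as single-end reads. The authors trimmed reads with Trimmomatic 0.39 (version per the submitters' processing notes) and quantified them with RSEM against Ensembl GRCm38; the RSEM version and strand setting are not given in the sources used here. The deposited values used were the expected counts per gene, rounded here to whole counts, and the deposited TPM, used only to compare levels between genes; the authors' FPKM values were not used. Reads shared by similar or overlapping genes are divided by RSEM as estimates.

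Library sizes were scaled by TMM in edgeR 4.0.16 (R 4.3.3), and 17875 of 55487 genes passed filterByExpr. One quasi-likelihood model of the 4 groups, without covariates, was fitted to all mice (15 residual degrees of freedom), with Benjamini-Hochberg adjustment over all genes tested and calls at an adjusted p under 0.05. Each SE was taken from the fold change on the log2 scale and the F statistic. *Nr0b2* and *Gpbar1* were tested by exact permutation of mice on log2(CPM + 1), and correlations by 100000 permutations. A count of 0 allows up to 3 reads, counting error only. Alternatives were other filters, upper quartile and RLE scaling, DESeq2 1.42.0, the likelihood ratio test, sex as a covariate, replicate blocks, a regrouped mouse, and leaving out each mouse; the marker correlations and their leave-outs were added after seeing the data.

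Named genes were the members, *Nts*, the called genes of each list (at most the 5 with the smallest p for each comparison), defining markers, and the 3 genes most like each tested member; *Abcc3*, *Nos2* and *Cyp7a1*, *Cyp8b1*, *Pdx1*, and *Gata4* are also named where a count turns on them. The members and lists were chosen with earlier results of these data known. The mice carry a number in their titles and a number at the head of their file names, which differ for 2 mice. What these numbers stand for, and which mice were littermates, is not stated. Deviations of mice with the same file number were correlated over 0.1 in every pair of each of the 4 direct comparisons. Mean r was 0.282 to 0.356. Title numbers met this in 2 of the 4. The file number was therefore treated as pairing the mice in the file-number block, from the data and not from the design. Mice with file numbers 1, 2, and 4 were all female. Those with file numbers 3 and 5 were male, apart from the mouse without a sex label. The file-number block thus also takes up differences between the sexes, and shared sex and a shared file number cannot be told apart in these correlations. The main fit and the permutation tests did not use this pairing. No replicate libraries were duplicates.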

Additional observations from a re-analysis of the deposited data

Results flagged for a closer look

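Among 36 sets of a gene in a group of 4 or 5 mice, 3 had a mouse farther from the others than Dixon's 95% limit allows; chance alone gives about 1 in 20. Mouse NT-/- Fast-2 had 52.6 CPM of *Slc51b*, the basolateral exporter subunit, where the other fasted NT-/- mice had 31.6 to 36 CPM. Its library was the shallowest of all mice (total count, 9059418). Mouse NT+/+ AL-2 had 8.32 CPM of *Fgf15*, where the other fed NT+/+ mice had 1.45 to 3.4 CPM, and the fed NT-/- mouse with the same file number had 10.7 CPM. Mouse NT-/- AL-4 had 0.746 CPM of *Nts*, where the other fed NT-/- mice had 0.144 to 0.216 CPM.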

How the results depend on the processing

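Of 318 member fold changes under other settings, 298 kept their direction and side of the threshold, and of 570 with a mouse left out, 527 did. These totals include the genotype comparisons and the interaction, where 0 members were called in any setting. For fasting in NT-/- mice, the call changed in 3 of 11 other settings for *Slc10a2* and for *Slc51a* and in 3 of 10 for *Fgf15*. In NT+/+ mice only the call of *Fgf15* changed, in 2 of 10. A main value of 0.00 could not count as a change of direction. This applies to *Slc51b* between genotypes in fed mice, which ranged from -0.12 to 0.10 with a mouse left out. Members called in fasted NT-/- mice numbered 2 with sex as a covariate and 2 to 4 with a mouse left out (2 without NT-/- AL-2, AL-3, Fast-2, or Fast-5); in NT+/+ mice they numbered 4 to 5 with a mouse left out. Besides the values given with *Slc51a* and *Fgf15*, *Slc51a* in NT-/- mice missed the threshold with no filter (0.40; adjusted p = 0.0507) and with mouse NT+/+ Fast-5 regrouped as NT-/- (0.37; adjusted p = 0.0539), and *Slc10a2* in NT-/- mice passed it with DESeq2 (1.29; adjusted p = 0.0433). *Fgf15* was not tested with at least 10 counts required in every mouse. With the file-number block as pairing, members called were 5 in NT+/+ and 4 in NT-/- mice, and beyond *Fgf15* and *Slc10a2* no other member call changed. With the title-number block, NT-/- *Slc10a2* was 1.35 (quasi-likelihood test, adjusted p = 0.034). *Fgf15* was then called in neither genotype, at -2.29 in NT+/+ and -2.19 in NT-/- mice (quasi-likelihood tests, adjusted p = 0.0513 and 0.109). Correlated pairs of members numbered 2 without the 2 farthest mice, where *Slc10a2* and *Fabp6* joined, and 1 to 2 with a mouse left out.

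Values that changed sign were those of members not called. Between genotypes in fasted mice, *Fabp6* was -0.03 with either block and -0.60 with sex, in a fit that lacks mouse NT-/- Fast-5. With the regrouped mouse, *Fabp6* was -0.11, *Slc51a* -0.06, and *Slc51b* -0.13 there, and the *Slc51b* interaction was -0.14. The *Fgf15* interaction was 0.10 with the title block and 0.05 with the file block. With a mouse left out, the ranges in fed mice were -0.37 to 0.62 for *Fabp6*, -0.09 to 0.68 for *Slc10a2*, and -1.75 to 0.36 for *Fgf15*; in fasted mice -0.69 to 0.51 for *Fabp6*, -0.04 to 0.20 for *Slc51a*, and -0.07 to 0.27 for *Slc51b*; and for the interaction -0.90 to 0.54 for *Fabp6*, -1.29 to 0.82 for *Fgf15*, -0.21 to 0.02 for *Slc51a*, and -0.07 to 0.26 for *Slc51b*. The causes were not tested. Over all genes, calls between genotypes were 1 in each diet. They were 3 in fed and 98 in fasted mice with DESeq2, and 3 and 41 with the likelihood ratio test. With the regrouped mouse they were 0. They were also 0 with at least 10 counts in every mouse, a filter that removes *Nts* (as few as 3 reads in a mouse) before testing. Of 1010 counts over lists under other settings, 989 stayed within 1.5 times, as did 1779 of 1805 with a mouse left out. Depth limits *Nr0b2*, *Gpbar1*, and fasted *Fgf15*, which rest on few reads, and also *Slc10a2*, with 10 to 94 reads per mouse.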
